A study of Homo sapiens with 48 samples.

Results

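The 8 keratin genes described here were followed as knockouts in a pooled CRISPR screen: the basal keratins KRT5, KRT14 and KRT15, the stress keratins KRT6A, KRT6B and KRT16, and the suprabasal keratins KRT1 and KRT10. They were taken by name from the gene lists of the deposited tables, not by their values, and are 8 of the 327 genes measured. Earlier results of these data were known when they were chosen. Guide RNAs were counted in 3 human squamous carcinoma lines that stably express the Cas9 nuclease: SCC13 from skin, CAL27 from tongue and A431, an epidermoid carcinoma line. The later samples were 16 SCC13 tumors grown in NOD scid mice that lack the interleukin-2 receptor gamma chain, 10 CAL27 tumors and 8 A431 tumors grown in SHO mice, and 2 CAL27 and 2 A431 cultures kept for 3 weeks. Tumors grew in the rear flanks for about 2 months, and each set of later samples was compared with 2 initial samples of the same line and experiment, frozen after drug selection of the infected cells. All cells, the initial ones included, carry Cas9 and a guide. The screen asked which genes matter for growth in mice and in culture.

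Keratins build the intermediate filaments of epithelial cells. A type II keratin and a type I keratin pair with each other as obligate partners, so a filament always holds both types. KRT5 (type II) with KRT14 (type I) forms the network of dividing basal keratinocytes, and KRT15 is a further type I keratin of the basal layer. KRT1 (type II) with KRT10 (type I) takes over in suprabasal cells of the epidermis as they differentiate. KRT6A and KRT6B (type II) with KRT16 (type I) are induced by wounding and in hyperproliferative skin and are common in squamous carcinomas. The type II genes lie together on chromosome 12 of GRCh37, KRT5 at chr12:52908359-52914314, KRT6A at chr12:52880960-52887041, KRT6B at chr12:52840435-52845930 and KRT1 at chr12:53068520-53074191. The type I genes lie together on chromosome 17, KRT14 at chr17:39738531-39743147, KRT15 at chr17:39669997-39678781, KRT16 at chr17:39766030-39772151 and KRT10 at chr17:38974369-38978866. All 8 are on the minus strand.

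Several of these genes are near copies of each other, and a Cas9 guide cuts wherever its target and the adjoining NGG motif recur. The first 60 coding bases of KRT6A (GRCh37 chr12:52886913-52886972, minus strand), KRT6B (chr12:52845803-52845862, minus strand) and KRT6C (chr12:52867462-52867521, minus strand), a library gene that is no member of the set, are the same. Those of KRT14 (chr17:39743027-39743086, minus strand) and KRT16 (chr17:39768881-39768940, minus strand) are also the same. They are shown because a guide chosen there could not tell the genes apart, and the capitals mark a 23-base possible Cas9 site.
KRT6A, KRT6B and KRT6C: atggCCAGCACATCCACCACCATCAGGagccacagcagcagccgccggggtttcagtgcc
KRT14 and KRT16: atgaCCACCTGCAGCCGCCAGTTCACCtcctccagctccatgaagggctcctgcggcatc
The KRT6 site occurs 3 times in the genome, once in each of these genes. The KRT14 and KRT16 site, which has its NGG motif on the plus strand, occurs 2 times.

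The window of 60 coding bases in which the KRT6 genes differ most shows how little separates them. It covers coding bases 663 to 722 in exon 2, at chr12:52885339-52885398 in KRT6A, chr12:52844223-52844282 in KRT6B and chr12:52865883-52865942 in KRT6C, all on the minus strand. Capitals mark the 9 positions at which the 3 genes are not all the same.
KRT6A: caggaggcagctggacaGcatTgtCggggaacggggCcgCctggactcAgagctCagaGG
KRT6B: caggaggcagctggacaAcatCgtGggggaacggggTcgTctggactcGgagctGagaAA
KRT6C: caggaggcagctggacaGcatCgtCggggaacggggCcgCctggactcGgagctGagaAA
Over the whole coding sequence, 51 of 1692 positions differed among the KRT6 genes. KRT6A was 97.5% identical to KRT6B, KRT14 was 85.1% identical to KRT16, and KRT5 was 45.2% identical to its type I partner KRT14.

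All possible sites with an NGG motif in the coding exons were then searched in the genome. In KRT6A, 218 of 276 sites (79.0%) had an exact copy elsewhere, and 184 of them had one in KRT6B. The share was 87.4% in KRT6B, 70.4% in KRT14 and 60.4% in KRT16, where 84 sites were common to KRT14 and KRT16 and others recurred in KRT16 pseudogenes. It was low in KRT5 (15.1%), KRT15 (10.8%), KRT10 (9.33%) and KRT1 (7.51%). The guides of the library are not used here, so how many of the guides for KRT6A, KRT6B, KRT14 and KRT16 cut a second gene was not tested, and values of these 4 genes may each stand for more than 1 gene.

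**Figure D1:**
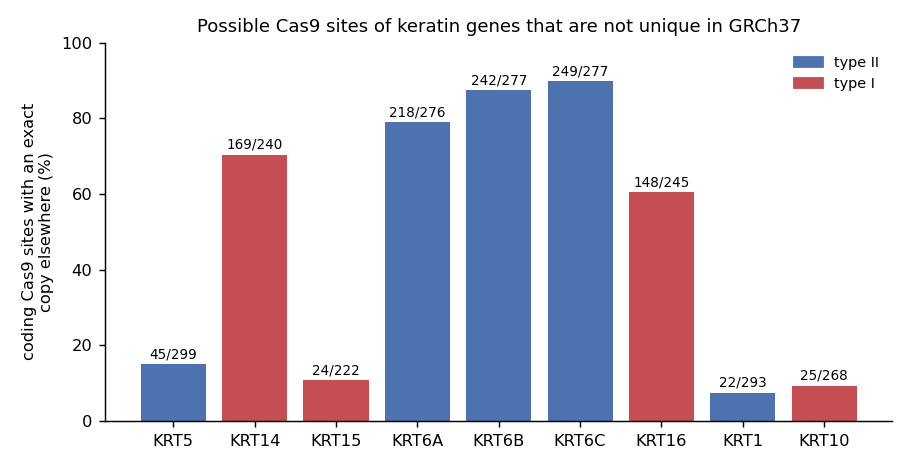
Bars give the percentage of possible Cas9 sites in the coding exons of each keratin gene that have an exact copy elsewhere in GRCh37, with the counts above them and type II and type I genes in different colours. KRT6A, KRT6B, KRT6C, KRT14 and KRT16 stand at 60.4% or more, and KRT5, KRT15, KRT1 and KRT10 at 15.1% or less.

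Every later sample has 1 value per gene, a log fold change over the initial samples, relative to the non-targeting guides. Neither the log base nor the number of reads is known here, so values are in log units and their depth is unknown. The direction is not written either: TYMS, which makes the thymidylate needed for DNA synthesis, stood at -2.67 log units in CAL27 culture and at -1.81 in A431 culture, and a negative value is read as loss of the knockout. The median over the 327 genes was subtracted from each column, so a centred value of 0 is the median gene. That median lay below the non-targeting guides in most columns, at -2.67 to 0.53 in SCC13 tumors, -1.50 to -0.56 in CAL27 tumors, -0.55 to -0.07 in A431 tumors, -0.49 and -0.47 in CAL27 culture and -0.37 and -0.36 in A431 culture. A gene above the median can therefore lie below the non-targeting guides, and both values are given. SCC13 value column 3 was the only column with its median gene above the non-targeting guides, and the SCC13 results were also computed without it. The SD over genes of a column was 1.89 to 2.87 in SCC13 tumors, 1.09 to 2.23 in CAL27 tumors, 0.42 to 1.34 in A431 tumors, 0.57 and 0.59 in CAL27 culture and 0.50 and 0.51 in A431 culture. Values in log units thus spread over different ranges in the 5 tables. Means were tested against 0 with limma, and adjusted p-values are those of Benjamini and Hochberg over all 327 genes, called below 0.05. Whether tumors came from the same mouse, or cultures from separate starts, is not in the labels, and p-values measure no more than the spread among these samples.

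Among the basal keratins, the mean of KRT5 knockouts lay above the median gene in all 5 tables, though below the non-targeting guides in SCC13 tumors and CAL27 culture. Knockouts of its partner KRT14 were lost from CAL27 tumors and CAL27 culture on either scale, though 89.6% of all genes fell in that culture against the non-targeting guides. KRT15 did not pass the test in any table on the centred scale. These are 1 type II and 2 type I genes of the same basal layer.

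KRT5 had centred values of -2.20, 1.41 and 3.96 (lowest, median and highest) in SCC13 tumors, -0.72, 1.15 and 2.62 in CAL27 tumors, and -0.56, 0.61 and 0.93 in A431 tumors. The cultures had 0.53 and 0.39 in CAL27 and 0.55 and 0.55 in A431. The gene was above the median gene in 13 of 16 SCC13 tumors, 9 of 10 CAL27 tumors, 6 of 8 A431 tumors and all 4 cultures. Its mean was 1.21 ± 1.42 (SD, n = 16; limma adjusted p = 0.0182) in SCC13 tumors and 1.16 ± 0.97 (SD, n = 10; limma adjusted p = 0.00774) in CAL27 tumors. In A431 tumors the mean of 0.44 ± 0.52 (SD, n = 8) did not pass (limma adjusted p = 0.154). In culture, where 2 values agreed closely in each line, the mean was 0.46 ± 0.09 (SD, n = 2; limma adjusted p = 0.0381) in CAL27 and 0.55 (n = 2; limma adjusted p = 0.0430) in A431. Relative to the non-targeting guides the KRT5 means were -0.41 in SCC13 tumors, 0.34 in CAL27 tumors, 0.16 in A431 tumors, -0.02 in CAL27 culture and 0.19 in A431 culture, and none of them passed the limma test. Leaving out SCC13 value column 10 ended the SCC13 call (limma adjusted p = 0.0555).

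KRT14 had centred values of -2.57, -0.25 and 3.17 (lowest, median and highest) in SCC13 tumors, -2.97, -1.67 and 0.04 in CAL27 tumors, and -0.93, 0.09 and 0.90 in A431 tumors. The CAL27 cultures had -0.55 and -0.65 and the A431 cultures 0.01 and 0.05. In CAL27 tumors 8 of 10 values were below the median gene, and value column 10 was the median gene itself. The mean fell to -1.60 ± 1.08 (SD, n = 10; limma adjusted p = 0.000824) in CAL27 tumors and to -0.60 ± 0.07 (SD, n = 2; limma adjusted p = 0.0207) in CAL27 culture. Relative to the non-targeting guides it was -2.41 in CAL27 tumors, with 0 of 10 values above 0, and -1.08 in CAL27 culture, and both means passed on that scale too. By that scale 50.2% of all genes fell in CAL27 tumors and 89.6% in CAL27 culture. The means of 0.03 ± 1.74 in SCC13 tumors (SD, n = 16; limma adjusted p = 0.959), 0.05 ± 0.65 in A431 tumors (SD, n = 8; limma adjusted p = 0.883) and 0.03 in A431 culture (n = 2; limma adjusted p = 0.880) did not pass. Against the non-targeting guides the SCC13 mean was -1.59 and passed (limma adjusted p = 0.00305), where 67.3% of all genes fell. In SCC13, 6 of the 16 KRT14 values moved between columns by exactly the same amount, to 6 decimals, as the values of at least 3 other genes, and whether they sit at a lower limit of the authors' calculation was not tested.

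KRT15 had a mean of 1.05 ± 2.21 (SD, n = 16; limma adjusted p = 0.0596) in SCC13 tumors, with values between -1.71 and 5.98. It passed there without value column 3, at 1.20 (limma adjusted p = 0.0379). In CAL27 tumors its mean was -0.11 ± 0.60 (SD, n = 10; limma adjusted p = 0.803), in A431 tumors -0.13 ± 0.28 (SD, n = 8; limma adjusted p = 0.630), and in culture -0.22 in CAL27 and 0.19 in A431. With deposited values, which are relative to the non-targeting guides, the means were -0.57 in SCC13 tumors, -0.92 in CAL27 tumors, -0.41 in A431 tumors, -0.70 in CAL27 culture and -0.17 in A431 culture. On that scale KRT15 fell in CAL27 tumors, with 0 of 10 values above 0 (limma adjusted p = 0.0130), where 50.2% of all genes fell. KRT15 also fell in CAL27 culture (limma adjusted p = 2.48e-07), where 89.6% of all genes fell. Its centred values straddled the median gene in all 3 lines as tumors.

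Among the stress keratins, knockouts of KRT6A rose relative to the median gene in SCC13 and CAL27 tumors, and lay above the non-targeting guides there too. Those of KRT6B rose in SCC13 and A431 tumors, with the SCC13 mean below the non-targeting guides. Those of the type I gene KRT16 fell in CAL27 tumors and CAL27 culture on either scale, though 89.6% of all genes fell in that culture against the non-targeting guides. KRT6A gave the highest mean of the set in SCC13 and in CAL27 tumors.

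KRT6A had centred values of -0.17, 2.30 and 6.61 (lowest, median and highest) in SCC13 tumors, -0.16, 1.55 and 2.06 in CAL27 tumors, and -0.10, 0.50 and 1.28 in A431 tumors. The cultures had 0.09 and -0.01 in CAL27 and 0.04 and 0.03 in A431. The gene lay above the median gene in 15 of 16, 9 of 10 and 7 of 8 tumors of these lines, and close to the median gene in the cultures. The mean was 2.77 ± 2.04 in SCC13 tumors (SD, n = 16; limma adjusted p = 7.43e-07), the tenth highest of 327 genes. It was 1.19 ± 0.78 in CAL27 tumors (SD, n = 10; limma adjusted p = 0.00351) and 0.59 ± 0.48 in A431 tumors (SD, n = 8; limma adjusted p = 0.0531), where it did not pass. Relative to the non-targeting guides the mean was 1.15 in SCC13 tumors, with 12 of 16 values above 0, and it passed the limma test there (adjusted p = 0.0301). On that scale it was 0.38 in CAL27 tumors and 0.31 in A431 tumors, and neither passed. In CAL27 culture it was -0.44 and passed as lower, where 89.6% of all genes fell. In A431 culture it was -0.33 and did not pass.

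KRT6A shared its exact value with other genes in both A431 cultures, with 9 genes at that value in each, and in A431 tumor value column 1, with 6 genes. KRT1 was among the 9 in the first A431 culture. In all, 18 genes shared an exact value in some culture column, and these genes also stood high in tumors: the median of their means was 1.70 in SCC13 (18 of 18 above the median gene), 1.14 in CAL27 (17 of 18) and 0.53 in A431 (14 of 18), against -0.09, -0.06 and -0.00 for the other 309 genes. What makes the values of these genes identical, and its part in the KRT6A and KRT1 results, was not tested. With the shared value left out, the KRT6A mean in A431 tumors was 0.53 (limma adjusted p = 0.106).

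KRT6B had centred values of -2.31, 1.43 and 4.46 (lowest, median and highest) in SCC13 tumors, -3.23, 0.75 and 2.02 in CAL27 tumors, and -0.26, 0.84 and 1.58 in A431 tumors. The mean passed in SCC13 tumors at 1.28 ± 2.17 (SD, n = 16; limma adjusted p = 0.0197) and in A431 tumors at 0.70 ± 0.66 (SD, n = 8; limma adjusted p = 0.0448). It did not pass in CAL27 tumors at 0.50 ± 1.49 (SD, n = 10; limma adjusted p = 0.343), where value column 7 at -3.23 lay far below the other 9. Without that column the CAL27 mean was 0.92 (limma adjusted p = 0.0255). Leaving out any of SCC13 value columns 3, 10, 12 and 13 ended the SCC13 call, with limma adjusted p-values of up to 0.0600, and leaving out 6 of the 8 A431 tumors in turn also ended the A431 call. Relative to the non-targeting guides the means were -0.34 in SCC13 tumors, -0.31 in CAL27 tumors and 0.43 in A431 tumors, and none passed. In culture the centred values were 0.18 and 0.30 in CAL27 and 0.01 and -0.27 in A431. Against the non-targeting guides the culture means of -0.24 in CAL27 and -0.50 in A431 passed as lower, where 89.6% and 41.6% of all genes fell. As for KRT14, some SCC13 values of KRT6B (2 of 16) moved between columns by exactly the same amount as those of at least 3 other genes.

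KRT16 had centred values of -3.46, 0.47 and 4.53 (lowest, median and highest) in SCC13 tumors, -3.98, -0.95 and 1.05 in CAL27 tumors, and -0.53, 0.36 and 1.11 in A431 tumors. The CAL27 cultures had -0.84 and -0.49 and the A431 cultures -0.17 and -0.49. The median gene stood above 9 of the 10 CAL27 tumors and below 7 of the 8 A431 tumors. The mean fell to -1.23 ± 1.48 in CAL27 tumors (SD, n = 10; limma adjusted p = 0.0200) and to -0.67 ± 0.24 in CAL27 culture (SD, n = 2; limma adjusted p = 0.0423). In CAL27 tumors the call rested on value columns 3 and 6, at -3.98 and -3.14: without the first the limma adjusted p was 0.0566, and without the second 0.0578. Relative to the non-targeting guides the CAL27 means were -2.04 in tumors and -1.15 in culture, and both passed, where 50.2% and 89.6% of all genes fell. The means of 0.25 ± 1.99 in SCC13 tumors (SD, n = 16), 0.43 ± 0.58 in A431 tumors (SD, n = 8) and -0.33 ± 0.23 in A431 culture (SD, n = 2) did not pass. Against the non-targeting guides the means of -1.37 in SCC13 tumors and -0.69 in A431 culture did, where 67.3% and 41.6% of all genes fell. As for KRT14, some SCC13 values of KRT16 (4 of 16) moved between columns by exactly the same amount as those of at least 3 other genes. Whether they sit at a lower limit was not tested.

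KRT6C, the closest relative of KRT6A and KRT6B in the library, had means of -0.38 ± 2.01 in SCC13 tumors (SD, n = 16), 0.43 ± 0.73 in CAL27 tumors (SD, n = 10), 0.60 ± 0.83 in A431 tumors (SD, n = 8), 0.06 in CAL27 culture and 0.39 in A431 culture. None passed on this centred scale, with limma adjusted p-values from 0.0952 to 0.547. Its SCC13 mean lay below the median gene where those of KRT6A and KRT6B lay above it. In A431 tumors all 3 KRT6 genes lay between 0.59 and 0.70. Relative to the non-targeting guides the KRT6C mean was -1.996 in SCC13 tumors, with 2 of 16 values above 0. That mean was lower than the SCC13 mean of each of the 8 genes on that scale. The other KRT6C means were -0.385 in CAL27 tumors, 0.330 in A431 tumors, -0.421 in CAL27 culture and 0.028 in A431 culture. Test results for KRT6C on that scale are not given here.

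Among the suprabasal keratins, knockouts of both KRT1 and KRT10 rose relative to the median gene in SCC13 tumors, where KRT10 lay below the non-targeting guides. On the centred scale neither passed in CAL27 or A431. KRT1 had centred values of -0.42, 1.91 and 6.72 (lowest, median and highest) in SCC13 tumors, -2.43, 0.26 and 1.75 in CAL27 tumors, and -1.47, -0.11 and 0.73 in A431 tumors. It lay above the median gene in 15 of 16 SCC13 tumors, 6 of 10 CAL27 tumors and 4 of 8 A431 tumors. The SCC13 mean was 2.16 ± 1.79 (SD, n = 16; limma adjusted p = 5.57e-05), while 0.15 ± 1.27 in CAL27 tumors (SD, n = 10) and -0.22 ± 0.72 in A431 tumors (SD, n = 8) did not pass. The cultures had -0.01 and -0.02 in CAL27 and 0.04 and 0.50 in A431.

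KRT10 had centred values of -1.47, 1.25 and 4.62 (lowest, median and highest) in SCC13 tumors and was above the median gene in 13 of 16. Its SCC13 mean was 1.21 ± 1.55 (SD, n = 16; limma adjusted p = 0.0193), and without value column 1 it did not pass (limma adjusted p = 0.0640). The means of 0.16 ± 1.01 in CAL27 tumors (SD, n = 10), 0.20 ± 0.52 in A431 tumors (SD, n = 8), 0.08 in CAL27 culture and 0.09 in A431 culture did not pass. Relative to the non-targeting guides the SCC13 means were 0.54 for KRT1 and -0.40 for KRT10, and neither passed, so that both calls concern the median gene only. In CAL27 culture they were -0.50 for KRT1 and -0.40 for KRT10, and both passed as lower, where 89.6% of all genes fell. The KRT1 and KRT10 means of -0.66 and -0.66 in CAL27 tumors, -0.50 and -0.08 in A431 tumors, and -0.09 and -0.27 in A431 culture did not pass.

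**Figure D2:**
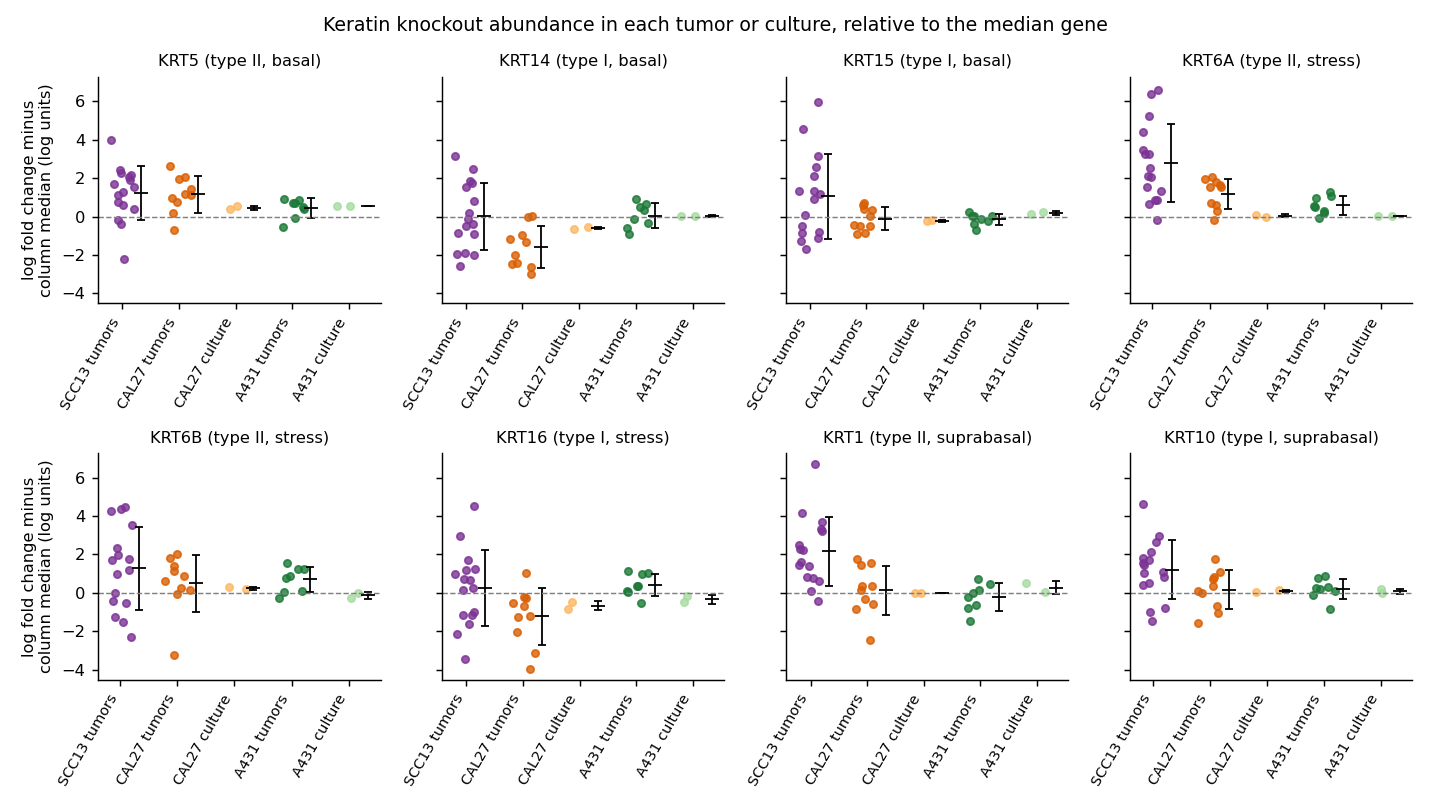
Points are the centred log fold changes (log units, log base unknown) of each keratin knockout in each tumor or culture, one panel per gene, with the mean and SD in black and the median gene at the dashed line. KRT14 and KRT16 have means below the line in CAL27 tumors and culture, and KRT6A and KRT1 lie above it in 15 of 16 SCC13 tumors each. As deposited, most points shift down, and the SCC13 means of KRT5, KRT6B and KRT10 are then below 0.

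Counted over the 8 genes, 5 rose and 0 fell in SCC13 tumors, where 23.5% of all genes tested rose and 23.9% fell. In CAL27 tumors 2 rose and 2 fell, against 18.7% and 22% of all genes. In A431 tumors 1 rose and 0 fell (7.95% and 11.9% of all genes). In CAL27 culture 1 rose and 2 fell (4.89% and 18.7%), and in A431 culture 1 rose and 0 fell (2.14% and 11.3%). The median of the 8 means was 1.21 in SCC13 tumors, 0.15 in CAL27 tumors, 0.31 in A431 tumors, 0.01 in CAL27 culture and 0.06 in A431 culture, while the median over all genes lay between -0.02 and 0.02. On the deposited scale the counts turned: 1 rose (KRT6A) and 2 fell (KRT14 and KRT16) in SCC13 tumors, where 3.98% of all genes rose and 67.3% fell. By this scale 0 rose and 3 fell in CAL27 tumors (KRT14, KRT15 and KRT16), where 5.5% of all genes rose and 50.2% fell. In A431 tumors 0 rose and 0 fell (2.14% and 22.3%), in CAL27 culture 0 and 7 (0% and 89.6%), and in A431 culture 0 and 2, KRT6B and KRT16 (0.306% and 41.6%). All but KRT5 are the 7 that fell in CAL27 culture.

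Partners were compared within each column, where the centring cancels and the result does not depend on the median gene. In CAL27 tumors the type II gene stood above its type I partner for the basal pair and for KRT6A with KRT16 in every tumor, by more than 2 log units on average. There 18.7% of all genes rose and 22% fell on the centred scale, and how often other gene pairs differ as much was not tested. KRT14 and KRT16 have 84 possible Cas9 sites in common, and whether the 2 pairs are independent was not tested. No difference within the suprabasal pair passed. Tests of 7 pairs in 3 sets of tumors came to 21, each an exact two-sided sign-flip permutation test, and adjusted values are over these 21.

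KRT5 exceeded KRT14 by -3.72, 1.92 and 4.02 log units (lowest, median and highest) in SCC13 tumors, 0.24, 2.80 and 4.63 in CAL27 tumors, and -0.76, 0.18 and 1.87 in A431 tumors. The cultures differed by 1.07 and 1.04 in CAL27 and by 0.54 and 0.50 in A431. KRT5 was thus higher in 11 of 16 SCC13 tumors, 10 of 10 CAL27 tumors, 4 of 8 A431 tumors and all 4 cultures. The mean difference in SCC13 tumors was 1.19 ± 2.18 (SD, n = 16; 95% interval 0.01 to 2.34; exact permutation p = 0.0480, adjusted 0.138), which did not pass. In CAL27 tumors it was 2.75 ± 1.38 (SD, n = 10; interval 1.73 to 3.75), with an exact permutation p of 0.00195, the smallest that 10 tumors can give, and 0.0205 after adjustment. In A431 tumors it was 0.39 ± 0.87 (SD, n = 8; interval -0.35 to 1.20; exact permutation p = 0.273).

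Against the second basal type I gene, KRT5 differed from KRT15 by 0.16 ± 2.75 in SCC13 tumors (SD, n = 16; interval -1.32 to 1.62). The difference was 1.27 ± 1.11 in CAL27 tumors (SD, n = 10; interval 0.45 to 2.06; exact permutation p = 0.00977, adjusted 0.0513) and 0.57 ± 0.57 in A431 tumors (SD, n = 8; interval 0.12 to 1.01; exact permutation p = 0.0391, adjusted 0.138). None of the 3 passed the adjustment in log units, and divided by the SD over genes the CAL27 difference of 0.88 SD did (exact permutation, adjusted p = 0.0410). Leaving out CAL27 value column 4 or 6 also took the CAL27 difference past the threshold, to at most 1.49. KRT5 was higher in 10 of 16 SCC13 tumors, 8 of 10 CAL27 tumors and 7 of 8 A431 tumors.

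KRT6A exceeded KRT16 by -3.69, 2.38 and 8.73 log units (lowest, median and highest) in SCC13 tumors, 0.49, 2.25 and 5.53 in CAL27 tumors, and -1.22, 0.13 and 1.52 in A431 tumors. The cultures differed by 0.93 and 0.48 in CAL27 and by 0.21 and 0.52 in A431. KRT6A was higher in 14 of 16 SCC13 tumors, 10 of 10 CAL27 tumors and 6 of 8 A431 tumors. The mean was 2.52 ± 2.99 in SCC13 tumors (SD, n = 16; interval 0.93 to 4.10; exact permutation p = 0.00418, adjusted 0.0293) and 2.42 ± 1.63 in CAL27 tumors (SD, n = 10; interval 1.26 to 3.63; exact permutation p = 0.00195, adjusted 0.0205). Leaving out any of SCC13 value columns 2, 6, 11, 13, 14 and 16 ended the SCC13 call (exact permutation, adjusted p = 0.0513). The KRT16 values that moved by the same amount as other genes were in SCC13 value columns 3, 6, 7 and 9. The differences there were 0.51, 5.51, 2.01 and 8.73, and whether a lower limit of KRT16 has a part in them was not tested. In A431 tumors the mean was 0.16 ± 0.83 (SD, n = 8; interval -0.54 to 0.86; exact permutation p = 0.609), and -0.04 without the column in which KRT6A shared its value with other genes.

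KRT6B differed from KRT16 by 1.03 ± 2.81 in SCC13 tumors (SD, n = 16; interval -0.48 to 2.52), 1.73 ± 2.44 in CAL27 tumors (SD, n = 10; interval -0.03 to 3.43; exact permutation p = 0.0527) and 0.27 ± 1.10 in A431 tumors (SD, n = 8; interval -0.76 to 1.20). None of these passed. The near copies KRT6A and KRT6B differed by 1.49 ± 2.84 in SCC13 tumors (SD, n = 16; interval -0.01 to 3.00; exact permutation p = 0.0512), 0.69 ± 1.76 in CAL27 tumors (SD, n = 10; interval -0.27 to 1.99) and -0.12 ± 0.56 in A431 tumors (SD, n = 8; interval -0.54 to 0.34). The type I relatives KRT14 and KRT16 differed by -0.22 in SCC13 tumors (interval -1.71 to 1.24), -0.37 in CAL27 tumors (interval -1.31 to 0.63) and -0.38 in A431 tumors (interval -1.23 to 0.43). All 3 intervals include 0 and reach below -1 log unit.

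KRT1 and KRT10 differed by 0.94 ± 2.37 in SCC13 tumors (SD, n = 16; interval -0.33 to 2.22; exact permutation p = 0.133), -0.01 ± 1.84 in CAL27 tumors (SD, n = 10; interval -1.37 to 1.30) and -0.42 ± 1.07 in A431 tumors (SD, n = 8; interval -1.34 to 0.53). No test of this pair passed. The median of the 4 type II genes lay above that of the 4 type I genes in 14 of 16 SCC13 tumors, 9 of 10 CAL27 tumors, 5 of 8 A431 tumors and all 4 cultures. The 4 genes of a type may not be independent, as possible Cas9 sites recur between KRT6A and KRT6B and between KRT14 and KRT16. Other groups of 4 genes were not compared in this way.

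**Figure D3:**
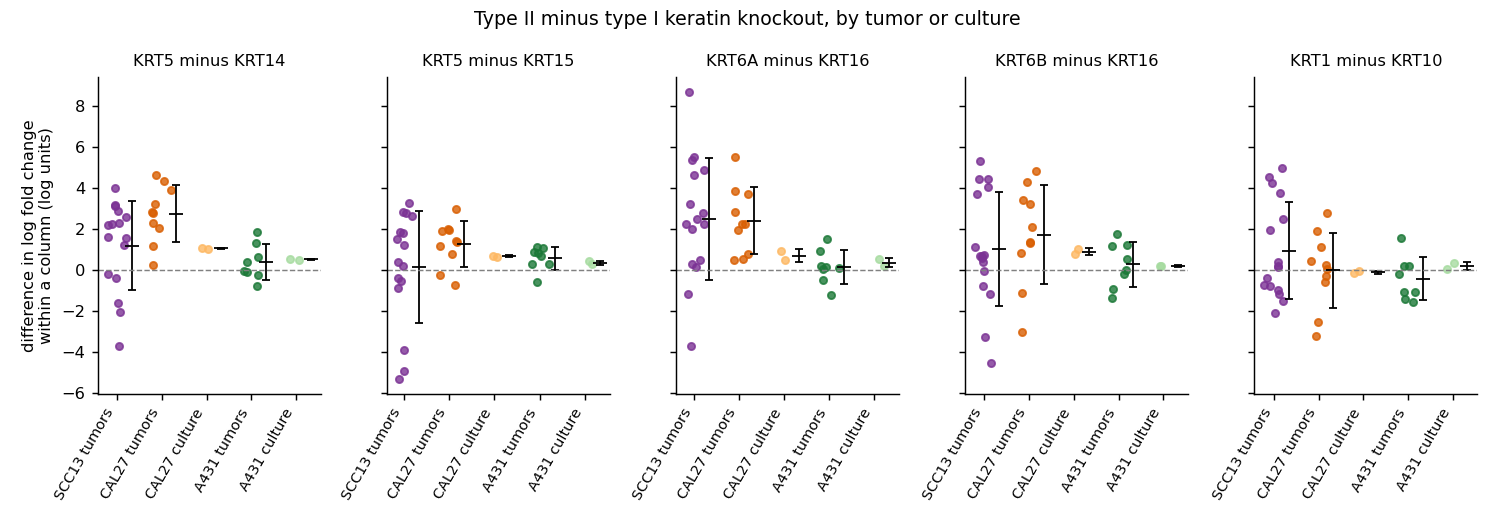
Points are the difference between a type II keratin knockout and its type I partner within a tumor or culture (log units), one panel per pair, with the mean and SD in black. All 10 CAL27 tumors lie above 0 for KRT5 minus KRT14 and for KRT6A minus KRT16, while A431 tumors lie around 0 for both.

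The same differences were then compared between lines and between settings by exact permutation of the columns, 25 tests chosen after the data were seen. KRT5 minus KRT14 was larger in CAL27 than in A431 tumors by 2.37 (SE 0.53; exact permutation p = 0.00121, adjusted 0.0274). KRT6A minus KRT16 was larger in CAL27 than in A431 tumors by 2.26 (SE 0.59; exact permutation p = 0.00219, adjusted 0.0274). These 2 of the 25 tests passed the adjustment in log units. KRT5 minus KRT14 differed between SCC13 and CAL27 tumors by -1.57 (SE 0.70; exact permutation p = 0.0530, adjusted 0.331). KRT6A minus KRT16 was larger in SCC13 than in A431 tumors by 2.36 (SE 0.80; exact permutation p = 0.0401, adjusted 0.331) and did not differ by more than its error between SCC13 and CAL27 tumors, at 0.10 (SE 0.91; exact permutation p = 0.926). Between tumors and culture, KRT5 minus KRT14 differed by 1.70 in CAL27 (SE 0.44; exact permutation p = 0.121, the smallest possible being 0.0152) and by -0.14 in A431 (SE 0.31; exact permutation p = 0.933). Divided by each column's SD over genes, which takes out the different widths of the tables, the differences between CAL27 and A431 tumors kept their sign but no longer passed the adjustment, at 1.09 SD for KRT5 minus KRT14 (exact permutation p = 0.0217, adjusted 0.181) and 1.19 SD for KRT6A minus KRT16 (exact permutation p = 0.00987, adjusted 0.123). None of the 25 tests passed on that scale. The smallest p there was for KRT5 minus KRT14 between SCC13 and CAL27 tumors, at -1.12 SD (exact permutation p = 0.00349, adjusted 0.0872). The CAL27 difference of KRT5 minus KRT14 between tumors and culture turned to -0.16 SD.

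Tumors and culture of the same line were compared gene by gene. In CAL27 the KRT6A knockout averaged about 1 log unit more in tumors than in culture and the KRT14 knockout about 1 log unit less, with a KRT14 sign that depends on the scaling. In A431 the stress keratins KRT6B and KRT16 had the largest differences. In the limma fit with a common spread 0 of the 8 genes were called in either line, where 0% of all genes passed in either direction, while 30 genes in CAL27 and 20 in A431 had an unadjusted p below 0.05.

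In CAL27, KRT6A averaged 1.19 ± 0.78 in tumors (SD, n = 10) and 0.04 ± 0.07 in culture (SD, n = 2), a difference of 1.15 (SE 0.69; 95% interval -0.29 to 2.60; limma adjusted p = 0.726), with 9 of 10 tumors above the culture mean. KRT14 averaged -1.60 ± 1.08 in tumors and -0.60 ± 0.07 in culture (SD, n = 10 and 2), a difference of -0.999 (SE 0.79; interval -2.65 to 0.66; limma adjusted p = 0.750), with 8 of 10 tumors below the culture mean. Divided by the SD over genes, the KRT14 difference turned to 0.14 SD and that of KRT16 to 0.51 SD. KRT5 differed by 0.70 (SE 0.75; interval -0.87 to 2.27) and KRT16 by -0.56 (SE 0.95; interval -2.55 to 1.43). The other 4 genes differed by 0.07 to 0.26. Tumors spread far more than the pair of cultures, and with each setting's own spread 1 of the 8 genes rose (KRT6A, limma adjusted p = 0.00809) and 1 fell (KRT14, limma adjusted p = 0.0322), where 17.7% of all genes rose and 15% fell. Exact permutation of the columns gave p = 0.0606 for KRT6A and 0.273 for KRT14.

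In A431, KRT6B averaged 0.70 ± 0.66 in tumors (SD, n = 8) and -0.13 ± 0.20 in culture (SD, n = 2), a difference of 0.83 (SE 0.48; interval -0.20 to 1.87; limma adjusted p = 0.812). KRT16 averaged 0.43 ± 0.58 in tumors and -0.33 ± 0.23 in culture (SD, n = 8 and 2), a difference of 0.76 (SE 0.45; interval -0.20 to 1.72; limma adjusted p = 0.812). For both genes 7 of 8 tumors lay above the culture mean, and exact permutation gave p = 0.133 for each. KRT6A differed by 0.55 (SE 0.41), KRT1 by -0.50 (SE 0.51), KRT15 by -0.32 (SE 0.35), KRT5 by -0.11 (SE 0.42), KRT10 by 0.11 (SE 0.43) and KRT14 by 0.02 (SE 0.48). With each setting's own spread 1 of the 8 genes rose, KRT6B (limma adjusted p = 0.0438), where 6.73% of all genes rose and 5.5% fell.

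**Figure D4:**
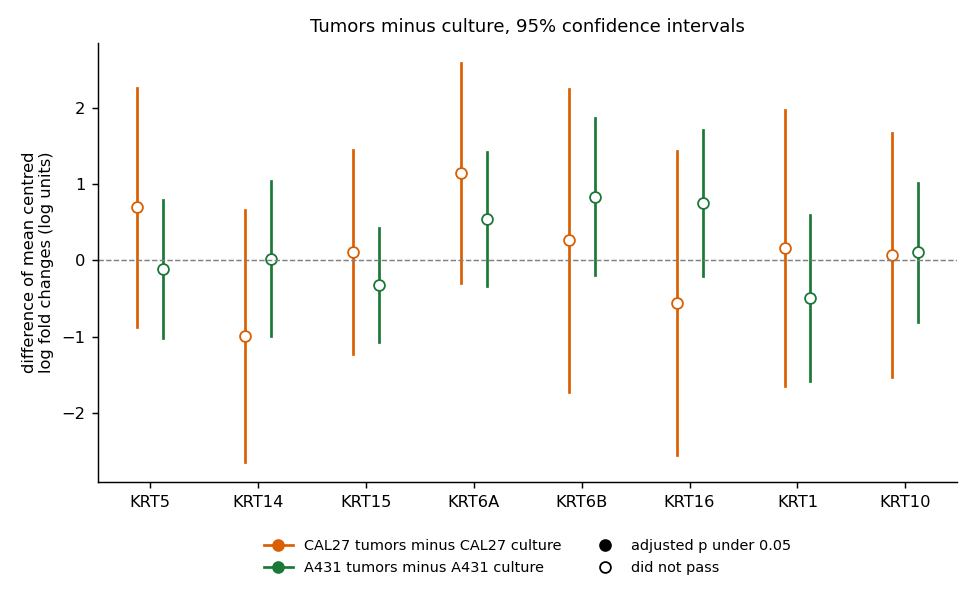
Points are the tumors minus culture differences of mean centred log fold changes (log units) for CAL27 and A431, with 95% confidence intervals from the limma fit with a common spread. Every interval crosses 0, and KRT14 in CAL27 has the lowest difference and KRT6A in CAL27 the highest. With columns divided by their SD over genes, the KRT14 difference is 0.14 SD.

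Tumors of the 3 lines were compared in 1 fit. Knockouts of KRT1 stood about 2 log units higher in SCC13 than in either other line. KRT14 stood higher in SCC13 than in CAL27, and KRT6A higher in SCC13 than in A431. KRT14 and KRT16 were lower in CAL27 than in A431 by about the same amount, without passing the test.

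Between SCC13 and CAL27 tumors 2 of the 8 genes were higher and 0 lower, where 9.79% of all genes were higher and 7.95% lower. KRT1 averaged 2.16 in SCC13 and 0.15 in CAL27, a difference of 2.01 (SE 0.59; interval 0.84 to 3.18; limma adjusted p = 0.0111), with 14 of 16 SCC13 tumors above the CAL27 mean. KRT14 averaged 0.03 in SCC13 and -1.60 in CAL27, a difference of 1.62 (SE 0.57; interval 0.48 to 2.77; limma adjusted p = 0.0373), which 10 of the 26 single tumors could end by being left out (adjusted p up to 0.0763). KRT6A differed by 1.57 (SE 0.59; limma adjusted p = 0.0537) and KRT16 by 1.48 (SE 0.62; limma adjusted p = 0.0825). KRT15 differed by 1.16, KRT10 by 1.06, KRT6B by 0.78 and KRT5 by 0.06, none of which passed. With deposited values the differences were 1.20 for KRT1 and 0.82 for KRT14, and 0 of the 8 genes passed, where 3.67% of all genes were higher and 20.8% lower. With each line's own spread, chosen after the data were seen, KRT6A was called higher as well (limma adjusted p = 0.0341), 3 of 8 where 11% of all genes were higher and 8.56% lower.

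Between SCC13 and A431 tumors 2 of the 8 genes were higher and 0 lower (10.4% and 10.7% of all genes). KRT1 averaged 2.16 in SCC13 and -0.22 in A431, a difference of 2.38 (SE 0.63; interval 1.12 to 3.64; limma adjusted p = 0.00571). KRT6A averaged 2.77 in SCC13 and 0.59 in A431, a difference of 2.18 (SE 0.64; interval 0.91 to 3.45; limma adjusted p = 0.0121). For each gene 15 of 16 SCC13 tumors lay above the A431 mean. With deposited values they differed by 1.04 and 0.84 and 0 of the 8 genes passed (1.53% and 37% of all genes), and KRT6A did not pass when columns were divided by their SD over genes, at 0.53 SD (limma adjusted p = 0.235). The other 6 genes differed by -0.18 to 1.19.

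Between CAL27 and A431 tumors 0 of the 8 genes were called (0.306% of all genes were higher and 3.06% lower). KRT14 averaged -1.60 in CAL27 and 0.05 in A431, a difference of -1.65 (SE 0.67; interval -2.99 to -0.30; limma adjusted p = 0.179), with 10 of 10 CAL27 tumors below the A431 mean. KRT16 averaged -1.23 in CAL27 and 0.43 in A431, also a difference of -1.65 (SE 0.72; interval -3.10 to -0.21; limma adjusted p = 0.200), with 9 of 10 below. The common spread of this fit includes that of the SCC13 tumors. With each line's own spread, chosen after the data were seen, KRT14 (limma adjusted p = 0.00425) and KRT16 (limma adjusted p = 0.00840) were both called lower, 2 of 8 where 8.87% of all genes were higher and 13.5% lower. With deposited values KRT14 differed by -2.19 and passed with the common spread as well (limma adjusted p = 0.0384), 1 of 8 where 7.34% of all genes were lower.

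In culture, KRT14 had the largest difference of the set between the 2 lines. KRT14 averaged -0.60 in CAL27 and 0.03 in A431, a difference of -0.63 (SE 0.13; interval -0.93 to -0.32; limma adjusted p = 0.0586), and KRT15 -0.22 in CAL27 and 0.19 in A431, a difference of -0.41 (SE 0.13; limma adjusted p = 0.151). KRT16 differed by -0.34 (SE 0.18) and KRT6B by 0.37 (SE 0.15). Values of the 2 lines did not overlap for KRT5, KRT14, KRT15, KRT6B, KRT16 and KRT1, 6 of the 8, where those of 56% of all genes did not overlap. With the limma test 0 of the 8 genes were called, where 0.306% of all genes were higher and 2.75% lower. With deposited values KRT14 was lower by the limma test (adjusted p = 0.0284), 1 of 8 where 6.42% of all genes were lower.

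**Figure D5:**
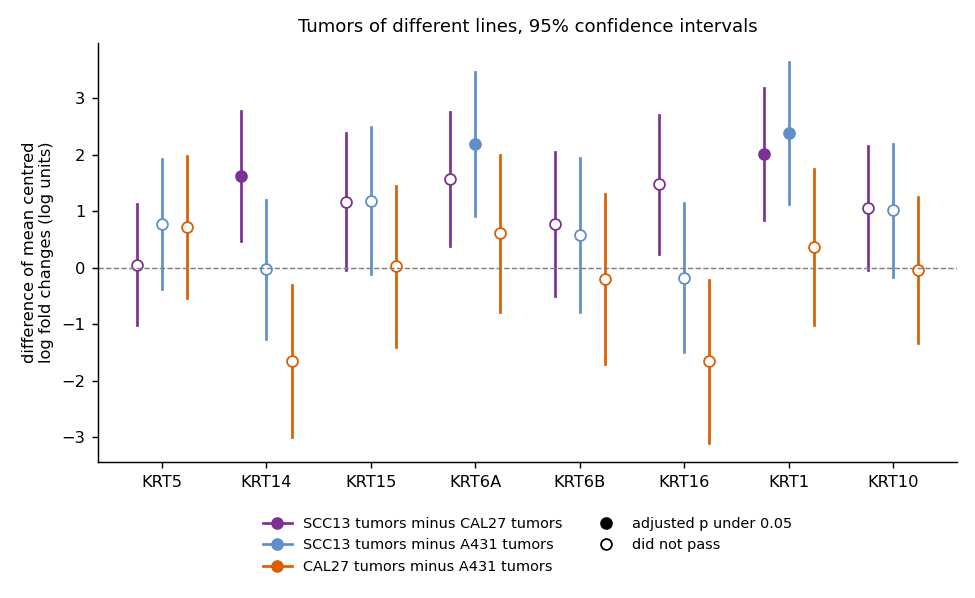
Points are differences between the mean centred log fold changes (log units) of the tumors of 2 lines, with 95% confidence intervals from 1 limma fit, filled where the adjusted p was under 0.05. KRT1 and KRT14 are filled for SCC13 minus CAL27 and KRT1 and KRT6A for SCC13 minus A431, and no gene is for CAL27 minus A431. With deposited values the filled differences keep their direction and do not pass.

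The genes with the most similar pattern were found by the root mean square difference of centred values, each divided by its column's SD over genes, over all 38 columns. KRT6A was nearest to VIM, at 0.65 SD, where the median over the 326 other genes was 1.31 SD. KRT15 was nearest to PRSS23 (0.68 SD), KRT10 to CRABP2 (0.71 SD), KRT5 to SOX4 (0.74 SD), KRT1 to KRT15 (0.74 SD), KRT16 to YY1 (0.79 SD), KRT6B to HOPX (0.82 SD) and KRT14 to CKS1B (0.85 SD). Only for KRT1 was the nearest gene another keratin, and it was not its partner KRT10. Of the genes second in order, IRF3 for KRT6A (0.70 SD) was also among the 18 genes with an exactly shared culture value.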

How the data were processed

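Guide RNAs of a pooled knockout library (334 genes, with 136 guides that target nothing) were sequenced from 38 tumors and cultures and 10 initial samples. Reads were aligned with Bowtie2, per the submitters' processing notes. For its version, for the log base and for how guides were summed into genes, nothing was found in the labels. In the authors' deposit there is 1 table for each line and setting, whose deposited values are treated as a score: a log fold change per gene, with the non-targeting row at 0. All 38 value columns were mapped to a group, and 0 were unused. Columns carry no replicate numbers and are called by their place in the table.

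Each column was centred on its median over 327 genes. Means were tested against 0 with limma 3.58.1 in R 4.3.3, with p-values adjusted by Benjamini-Hochberg over all genes. Differences between settings were fitted per line, and differences between tumors of the 3 lines in 1 fit, which assumes the same log base and guide summary. The error of the initial samples enters no test. Partner differences were tested by exact two-sided permutation. Scripts were tested on simulated data. Alternatives were the deposited scale, columns divided by their SD over genes, array weights, exact tests, exactly shared values left out, widely spread genes left out, SCC13 without value column 3, each column left out in turn, and a separate spread per line or setting. The separate spread used a Welch-type t-test in which limma moderated the variance of each group on its own. All 8 genes are named, with the 2 nearest genes of each. The members and lists were chosen with earlier results of these data known.

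Gene positions and sequences are from GRCh37 with the GENCODE v44 annotation lifted to it. No label names the authors' build. Keratin expression in the lines was not measured here.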

Additional observations from a re-analysis of the deposited data

Results flagged for a closer look

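In CAL27 tumors, KRT6B stood at -3.23 log units in value column 7, far below the other 9 tumors. Chance marks about 1 in 20 groups in this way, and 1 of 16 groups was marked here. In the same column KRT5 stood at 1.96 and KRT6A at 2.06 log units.

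Effects against initial cells differed between lines for 2 genes in each of 2 comparisons of tumors. Between SCC13 and CAL27 tumors, KRT1 differed by 2.01 (limma adjusted p = 0.0111) and KRT14 by 1.62 (limma adjusted p = 0.0373). Between SCC13 and A431 tumors, KRT1 differed by 2.38 (limma adjusted p = 0.00571) and KRT6A by 2.18 (limma adjusted p = 0.0121). The gap between partners differed between CAL27 and A431 tumors by 2.37 for KRT5 minus KRT14 and by 2.26 for KRT6A minus KRT16, each with an exact permutation p of 0.0274 after adjustment over 25 tests. Divided by each column's SD over genes, neither passed, with adjusted exact permutation p-values of 0.181 for KRT5 minus KRT14 and 0.123 for KRT6A minus KRT16. The cause of these differences was not tested, and line, mouse strain and experiment cannot be told apart between SCC13 and the other lines.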

How the results depend on the processing

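No paired analysis was possible because the value columns carry no replicate numbers. Array weights and leaving out a column were not run for the 2 cultures against initial cells, where 2 columns do not allow them. The separate spread per line and the tests of partner differences between tables were chosen after seeing the data. Depth is unknown and limits each value to an unknown extent. Where a call or sign changed, the cause was not tested, except that the deposited scale lowers values by the median gene.

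On the deposited scale, genes that rose and fell numbered 1 and 2 in SCC13 tumors, 0 and 3 in CAL27 tumors, 0 and 0 in A431 tumors, 0 and 7 in CAL27 culture, and 0 and 2 in A431 culture. Between lines, 0 were higher for SCC13 against CAL27 and against A431, and 1 was lower for CAL27 against A431, in tumors and in culture. The shares of all genes called on that scale are given with these counts in the Results. Means that changed sign were KRT5 -0.41, KRT14 -1.59, KRT15 -0.57, KRT6B -0.34, KRT16 -1.37 and KRT10 -0.40 in SCC13 tumors, KRT6B -0.31, KRT1 -0.66 and KRT10 -0.66 in CAL27 tumors, and KRT14 -0.22 and KRT10 -0.079 in A431 tumors. In culture they were KRT5 -0.023, KRT6A -0.44, KRT6B -0.24 and KRT10 -0.40 in CAL27, and KRT14 -0.34, KRT15 -0.17, KRT6A -0.33, KRT1 -0.092 and KRT10 -0.27 in A431. Differences that changed sign were KRT15 -0.22, KRT6B -0.068, KRT1 -0.16 and KRT10 -0.26 for CAL27 tumors minus culture, KRT5 -0.75 and KRT6B -0.029 for SCC13 minus CAL27, KRT5 -0.57, KRT15 -0.16, KRT6B -0.76 and KRT10 -0.33 for SCC13 minus A431, KRT15 -0.51 and KRT1 -0.17 for CAL27 minus A431 tumors, and KRT6A -0.11 in culture.

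Divided by the SD over genes, 2 of the 8 genes rose in A431 tumors, where 33 of all 327 genes rose. In A431 culture 0 rose (2 of 327), and in CAL27 culture 1 fell (49 of 327). Of the 8, 1 was higher in SCC13 than in A431 tumors and 1 lower in CAL27 than in A431 tumors. The shares of all genes for these 2 comparisons are not given here. Signs turned for KRT14 in SCC13 tumors (-0.000886), for CAL27 tumors minus culture in KRT5 (-0.018), KRT14 (0.14), KRT6B (-0.11), KRT16 (0.51) and KRT10 (-0.10), for KRT14 in A431 tumors minus culture (-0.046), KRT5 in SCC13 minus CAL27 (-0.24), KRT5 (-0.044) and KRT6B (-0.13) in SCC13 minus A431, and KRT6A between cultures (-0.00425). For pairs, KRT1 minus KRT10 in CAL27 tumors was 0.0094, and KRT5 minus KRT15 in CAL27 tumors was 0.88 and passed (exact permutation, adjusted p = 0.0410). Between tables, KRT5 minus KRT14 (1.09) and KRT6A minus KRT16 (1.19) for CAL27 minus A431 no longer passed, with adjusted exact permutation p-values of 0.181 and 0.123. KRT5 minus KRT14 was -0.032 for SCC13 minus A431 and -0.16 for CAL27 tumors minus culture. KRT5 minus KRT15 was -0.28 for CAL27 tumors minus culture. KRT6A minus KRT16 was -0.27 for SCC13 minus CAL27. KRT6B minus KRT16 was -0.62 for CAL27 and -0.17 for A431 tumors minus culture.

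With array weights 0 of the 8 rose in A431 tumors (5.5% of all genes), 2 were lower in CAL27 than in A431 tumors (13.1%) and 2 higher in CAL27 tumors than culture (14.1%). Signs turned for KRT14 in SCC13 (-0.026) and A431 tumors (-0.060), in A431 tumors minus culture (-0.087) and SCC13 minus A431 (0.044), and for KRT5 in SCC13 minus CAL27 (-0.076), KRT15 (-0.093) and KRT6B (0.030) in CAL27 minus A431. The exact sign-flip permutation test called 4 higher members in SCC13 tumors (21.7% of all genes), where KRT6B lost its call. It called 1 lower member in CAL27 tumors (18.3% of all genes), where KRT16 lost its call. In A431 tumors it called 0 members and 0 of all 327 genes, of which 100 had an unadjusted p below 0.05. The smallest p that 8 tumors allow is 0.00781. Without the most widely spread genes 2 of the 8 rose in A431 tumors, where 34 of 294 genes rose. With a separate spread per line 2 were lower in CAL27 than in A431 tumors (13.5% of all genes). Per setting 1 rose and 1 fell in CAL27 (17.7% and 15% of all genes) and 1 rose in A431 (6.73%). KRT6A minus KRT16 in A431 tumors was -0.036 without the column of the shared value.

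With each column left out in turn, 3 to 6 of the 8 genes rose in SCC13 tumors, where 68 to 77 of all 327 genes rose. In A431 tumors 0 to 2 rose (14 to 20 of 327), and in CAL27 tumors 1 to 2 fell (63 to 71 of 327). From 1 to 4 were higher in SCC13 than in CAL27, with the share of all genes not given here. KRT14 ranged from -0.18 to 0.20 in SCC13 and -0.068 to 0.19 in A431 tumors, KRT16 from -0.035 to 0.50 in SCC13, and KRT1 from -0.029 to 0.43 and KRT10 from -0.020 to 0.35 in CAL27 tumors. For tumors minus culture, KRT1 ranged from -0.0097 to 0.45 and KRT10 from -0.10 to 0.26 in CAL27, and KRT5 from -0.18 to 0.031 and KRT14 from -0.10 to 0.16 in A431. Between lines, KRT5 ranged from -0.15 to 0.28 for SCC13 minus CAL27, KRT14 from -0.24 to 0.15 and KRT16 from -0.46 to 0.070 for SCC13 minus A431, and KRT15 from -0.063 to 0.12, KRT6B from -0.37 to 0.22 and KRT10 from -0.22 to 0.15 for CAL27 minus A431. In culture KRT6A ranged from -0.048 to 0.053 and KRT10 from -0.096 to 0.081. KRT5 minus KRT14 ranged from 1.00 to 1.51 in SCC13, passing without column 9 (exact permutation, adjusted p = 0.0410), KRT5 minus KRT15 from -0.048 to 0.53 in SCC13, 1.07 to 1.49 in CAL27 and 0.49 to 0.74 in A431, KRT6A minus KRT16 from 2.10 to 2.93 in SCC13 and -0.036 to 0.35 in A431, and KRT6B minus KRT16 from 0.74 to 1.40 in SCC13 and 1.38 to 2.26 in CAL27. KRT1 minus KRT10 ranged from -0.32 to 0.35 in CAL27, KRT6A minus KRT6B from 1.06 to 1.82 in SCC13 and -0.27 to 0.0039 in A431, and KRT14 minus KRT16 from -0.48 to 0.19 in SCC13.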

Other observations

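Values and counts of the 3 gene lists that follow are on the centred scale only and do not say where a gene lies against the non-targeting guides. On the deposited scale 0% of all genes rose in CAL27 culture and 89.6% fell. Genes that anchor keratin filaments, in desmosomes and hemidesmosomes, were measured for 13 of the 18 listed. In SCC13 tumors 4 rose and 1 fell on the centred scale, where 23.5% of all genes rose and 23.9% fell, with ITGB4, the integrin of hemidesmosomes, at 2.42 (limma adjusted p = 5.02e-06) and DST, which ties keratins to hemidesmosomes, at 2.14 (limma adjusted p = 8.41e-05). The anchor that fell was PLEC, plectin, which links keratins to hemidesmosomes, at -1.39 (limma adjusted p = 0.00911). In CAL27 tumors 3 rose and 0 fell (18.7% and 22% of all genes), with DST at 1.91 and ITGB4 at 1.59 (limma adjusted p = 4.84e-05 and 0.000312). In A431 tumors 2 rose and 0 fell (7.95% and 11.9% of all genes), among them JUP, plakoglobin of the desmosome, at 1.09 (limma adjusted p = 0.00264). DST is among the 18 genes that shared an exact value in culture. The list's median was 0.40 in SCC13 tumors, 0.07 in CAL27 tumors and 0.27 in A431 tumors, where that of all genes was -0.02, 0.01 and 0.02.

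Regulators of keratin genes were measured for 7 of 24. Rising and falling genes numbered 4 and 3 in SCC13 tumors, 4 and 3 in CAL27 tumors, 1 and 1 in A431 tumors, and 0 and 3 in each culture. The shares of all genes that rose and fell were the ones above for tumors, 4.89% and 18.7% in CAL27 culture, and 2.14% and 11.3% in A431 culture. CEBPD and CEBPA, C/EBP factors of keratinocyte differentiation, rose to 2.86 and 2.56 in SCC13 tumors (limma adjusted p = 9.07e-07 and 1.78e-06). Both also rose in CAL27 tumors, with values not given here. They stood higher in SCC13 than in CAL27 tumors by 1.83 and 1.57 (limma adjusted p = 0.0401 and 0.0454). The receptor gene NOTCH3 rose to 1.88 in CAL27 tumors and 1.66 in A431 tumors (limma adjusted p = 2.35e-05 and 0.000299). FOSL1, an AP-1 factor, was at -2.41 in SCC13 tumors and -2.74 in CAL27 tumors (limma adjusted p = 8.59e-06 and 4.48e-05). It was at -1.24 in CAL27 culture and -0.99 in A431 culture (limma adjusted p = 0.00733 and 0.0139). In A431 tumors FOSL1 did not pass, at -0.47 (limma adjusted p = 0.151). JUNB fell to -2.92 in SCC13 tumors and -1.94 in CAL27 tumors (limma adjusted p = 5.21e-08 and 0.000554). It fell to -0.76 in CAL27 culture and -1.11 in A431 culture (limma adjusted p = 0.00995 and 0.0129), and was not called in A431 tumors. TP63, the master factor of stratified epithelia, fell to -2.55 in CAL27 tumors (limma adjusted p = 4.66e-05), to -2.79 in A431 tumors (limma adjusted p = 0.00264), to -1.02 in CAL27 culture (limma adjusted p = 0.00733) and to -1.30 in A431 culture (limma adjusted p = 0.0104). All 7 measured regulators were called in SCC13 tumors, TP63 and NOTCH3 among them, with values not given here.

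Other genes of suprabasal differentiation were measured for 15 of 25. Rising and falling genes numbered 4 and 1 in SCC13 tumors, 7 and 1 in CAL27 tumors, 2 and 1 in A431 tumors, 3 and 1 in CAL27 culture, and 1 and 0 in A431 culture, with the same shares of all genes as above. CALML3, a calmodulin-like protein of differentiating keratinocytes, rose to 2.92 in SCC13 tumors (limma adjusted p = 5.21e-08), and FABP5, an epidermal fatty acid binding protein, fell to -2.42 there (limma adjusted p = 5.02e-06).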
